A study of Oryza sativa with 30 samples.

Results

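Core and linker histone genes were followed through an RNA-seq series of rice (Oryza sativa) leaves that compared gamma irradiation, cold and lines altered in DNA damage genes. The genes were chosen by their deposited description alone: a nuclear gene was taken when its recommended protein name was histone H1, H2A, H2B, H3 or H4, or probable histone H2A. This gave 77 of the 38978 genes listed, of which 7 encode H1, 17 H2A, 16 H2B, 26 H3 and 11 H4. A set of 10 libraries with its own gene list held 76 of the 77.

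Histones H2A, H2B, H3 and H4 form the protein core around which DNA is wrapped into nucleosomes, and the linker histone H1 binds where DNA enters and leaves that core. Most core histone genes are switched on while DNA is being copied, when new chromatin needs them, whereas replacement variants such as H3.3 and H2A.Z are made throughout the cell cycle. H2A.X carries the serine that is phosphorylated around DNA breaks by ATM and ATR, the kinases after which several of the lines are named. Plant histone transcripts carry a poly(A) tail, unlike most animal ones.

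RNA came from leaves of seedlings grown for 14 days on 0.5× Murashige and Skoog medium at 26 °C with 13 h of light and 11 h of dark. The series held 30 libraries in 16 groups. In the first set of 20 libraries, the untreated groups were the line labelled as wild type ATM with 3 libraries, the atm-1 mutant with 3, the line labelled as wild type TOP6A3 with 1, the top6a3 mutant with 3 and the atr mutant with 1. Its irradiated groups received 70 Gy at 1 Gy per minute and were sampled 6 h later: ATM with 3 libraries, atm-1 with 3 and atr with 1. Its cold groups spent 24 h at 4 °C: ATM with 1 library and atm-1 with 1. In the second set of 10 libraries, the wild type DJ and the ku70 mutant had 2 untreated libraries each and 2 each taken 6 h after 40 Gy. The overexpression line TOP6A3-OE1 and that line with the atm-2 mutation had 1 library each, also 6 h after 40 Gy. Nothing says that libraries of a group came from separate plants, so the p-values measure the spread between these libraries, which may be technical. The treated libraries were deposited in tables apart from the untreated ones, and whether they were also prepared apart was not tested.

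Values are FPKM, read fragments scaled by gene length and by library size, and 10364355 to 16477147 reads per library lay behind them. Differences were fitted with limma on log2(FPKM + 1), and a gene was called when its adjusted p over all genes was under 0.05. In the first set 2 libraries stood apart. Replicate 1 of the untreated atm-1 group had 1.53% of its detected genes at 1 to 10 reads and replicate 3 of ATM after 70 Gy had 1.70%, where the remaining 18 libraries had 10.8% to 21.8%. Low shares were usual in the second set: 1.2% to 2.6% in the DJ libraries and 1.4% to 8.3% in those labelled ku70. There TOP6A3-OE1 had 5.8% and TOP6A3-OE1_atm-2 had 20.8%. Exact zeros were frequent in the second set, most of all in the libraries labelled ku70 at 40 Gy. The labels TOP6A3, TOP6A3-OE1 and ku70 were at odds with the gene they name. TOP6A3 (Os03g0284800) stood at 1899 FPKM in the library labelled TOP6A3 but at 4.49 FPKM in the library labelled TOP6A3-OE1. KU70 (Os07g0184900) stood at 24.7 and 37.8 FPKM in the untreated libraries labelled ku70, against 5.31 and 0.319 FPKM in DJ. ATM (Os01g0106700) stood at 4.12 to 6.19 FPKM in the ATM controls and 0.850 to 5.23 FPKM in the atm-1 controls. These ranges overlap and do not by themselves go against either label. ATR (Os06g0724700) was low in untreated atr, at 0.206 FPKM against 1.95 to 3.13 FPKM in the ATM controls. After 70 Gy it stood at 1.12 FPKM in atr and 1.45 to 4.33 FPKM in ATM. Because of TOP6A3 and KU70, line names are used below as labels only. The leaf identity was checked with 29 chlorophyll a-b binding and Rubisco small subunit genes, whose summed FPKM lay between 1850 and 76133 across libraries.

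Of the 77 histone genes, 21 had no read in any library, and 50 passed the filter of 1 FPKM in 2 libraries of the first set. These were 4 H1, 14 H2A, 13 H2B, 9 H3 and 10 H4 genes, and 49 passed in the second set. By mean level over the first set, 11 genes stood at 100 FPKM or more and 22 at 10 to 100 FPKM. No read was found for 11 of the 26 H3 genes and 3 of the 7 H1 genes. Among the 77 genes, 29 overlapped another gene model. In the expressed H1 and H3.3 genes the overlapping model lay on the opposite strand and was listed at 0 or reached at most 5 reads. The library kit keeps strand, but whether the counting used it is not given in the sources used here. Histone genes of a class can be close to identical, and how reads shared between such copies were assigned is not given either, so values within a class are less certain than class sums.

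A few genes supplied most of each class. Positions are those in the authors' tables, and no source used here names the genome build. The H1 gene Os06g0130800 (chromosome 6, 1642665 to 1643799, minus strand) made a median of 60.4% of the summed H1 FPKM in the first set and 73.8% in the second. Os03g0799000 and Os04g0253000, also H1, made 19.6% and 18.3% in the first set. Among H4 genes, Os09g0553100 (chromosome 9, 21912086 to 21912668, minus strand) made 57.4% in the first set and 37.9% in the second, where Os10g0539500 reached 32.9%. The H2A class was spread over H2A.2 Os07g0545400, the H2A.Z-type variant 3 Os03g0743400 and H2A.4 Os05g0461400, at 31.2%, 25.1% and 23.5% in the first set. The leading H2B genes were H2B.6 Os01g0152700, H2B.1 Os03g0279000 and H2B.11 Os01g0839500, with means of 213, 161 and 120 FPKM. Among H3 genes, H3.3a Os03g0390600 had the highest mean over the first set, 91.3 FPKM, but its share ranged from 5.39% to 76.9% across libraries. It stood below H3.2 Os01g0866200 in the cold libraries, in ATM and atm-1 after 70 Gy, in ATM control replicate 3 and in atm-1 control replicate 1. In the second set it did so in TOP6A3-OE1 and TOP6A3-OE1_atm-2.

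**Figure D1:**
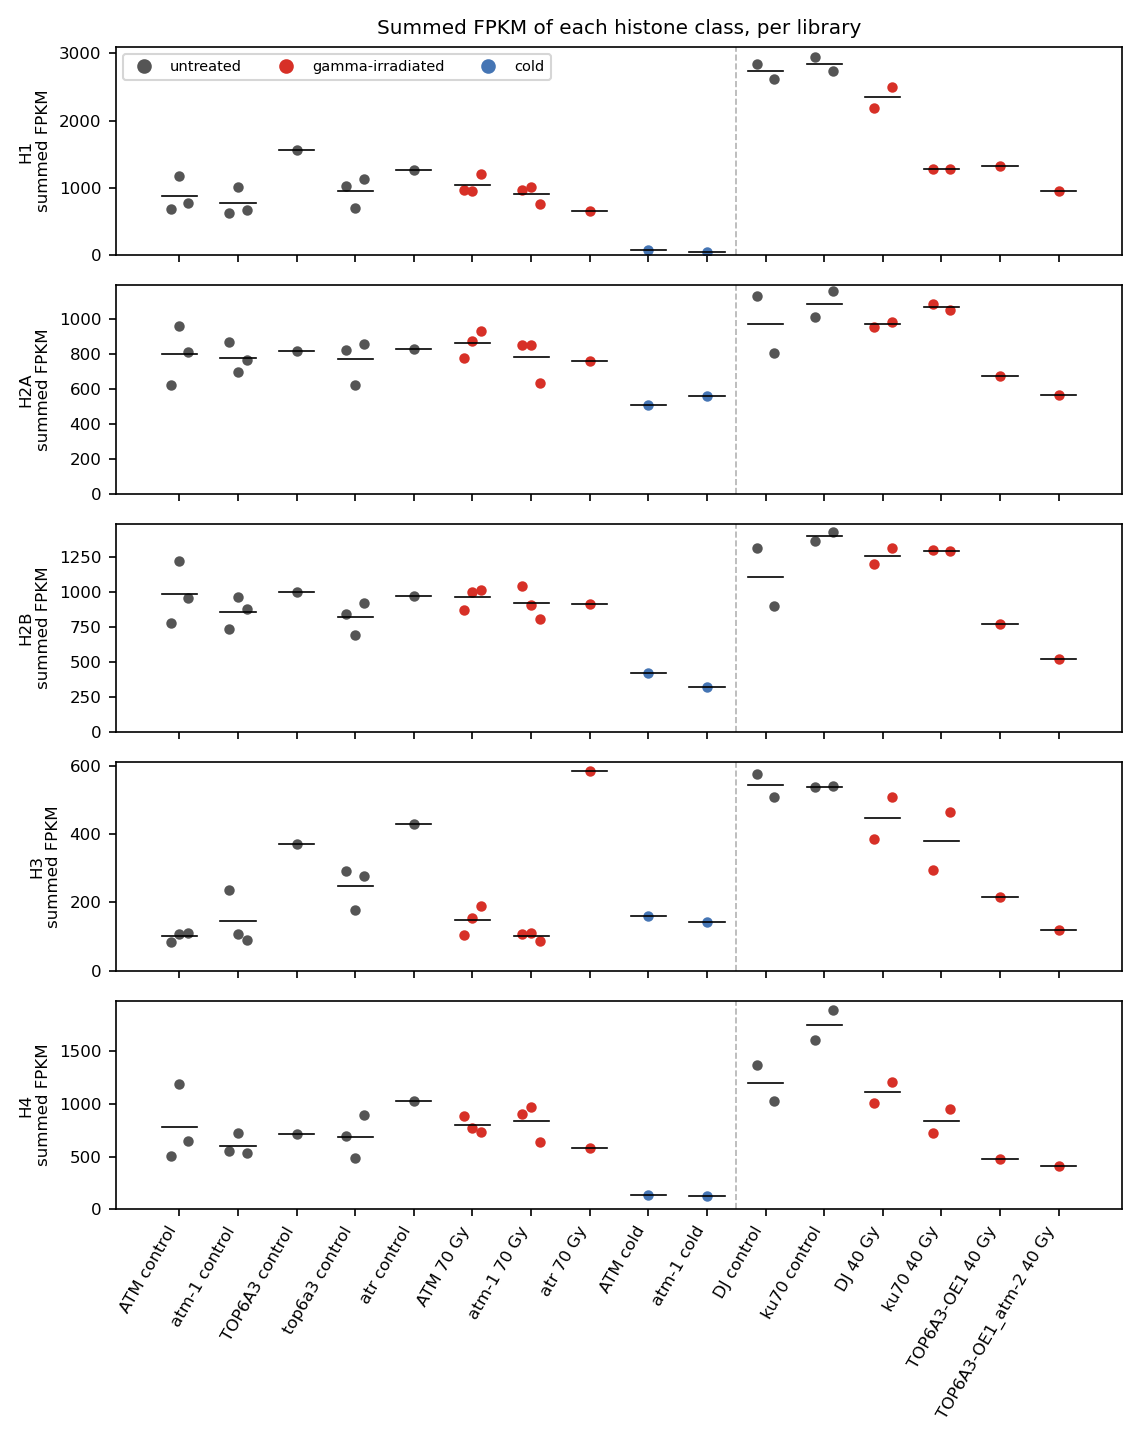
Summed FPKM of all genes of each histone class, 1 point per library and a bar at the group mean, with the 2 sets on either side of the dashed line. The H1 and H4 sums of the 2 cold libraries, at 53.1 to 75.8 and 122 to 135 FPKM, lie below those of every other library of their set.

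Cold lowered most histone genes of the leaf. Of the 50 genes tested, 27 fell and 3 rose after 24 h at 4 °C, against 28.4% of all genes called (15.6% higher, 12.9% lower). The median log2 difference of the histone genes was -1.21, against -0.01 for all genes. In 26 of the 50 both cold libraries lay below all 6 untreated ATM and atm-1 libraries, as did 14.4% of all genes. Taken line by line, 34 genes were lower in both lines, 6 were higher in both and 10 went opposite ways, against 36.0%, 33.4% and 24.6% of all genes. In both lines 21 were lower by 2-fold or more on the FPKM + 1 scale, as were 8.53% of all genes. Each line contributed 1 cold library, so the test took its spread from the other groups and each line's own difference had no replicate. The classes did not share the fall equally.

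The linker histones fell furthest. All 4 expressed H1 genes fell, with a median log2 difference of -3.01. Os06g0130800 stood at 374, 731 and 476 FPKM in ATM without treatment and 455, 523 and 403 FPKM in untreated atm-1, but at 32.9 FPKM in ATM cold and 14.7 FPKM in atm-1 cold. Both cold libraries lay far under every untreated one, and the ratio of the untreated to the cold mean was 20.8 (log2 difference -4.39 ± 0.31 SE, limma adjusted p = 8.28e-07). Os04g0253000 stood at 85.6 to 289 FPKM in the 6 controls, with a median of 153 FPKM, and at 11.5 and 13.2 FPKM in cold (-3.66 ± 0.44 SE, limma adjusted p = 8.00e-05). Os03g0799000 stood at 84.9 to 192 FPKM, with a median of 136 FPKM, and at 29.2 and 21.5 FPKM in cold (-2.36 ± 0.29 SE, limma adjusted p = 1.04e-04). For these genes control and cold libraries did not overlap. The scarcest, Os07g0184800, fell from 2.86 to 18.2 FPKM in controls to 2.18 and 3.82 FPKM (-1.63 ± 0.51 SE, limma adjusted p = 0.0299), and its call was lost in 5 of the 15 fits tried. Summed over the class, H1 stood at 879 ± 262 FPKM (SD, n = 3) in the ATM controls and 772 ± 212 FPKM (SD, n = 3) in the atm-1 controls, against 75.8 and 53.1 FPKM in cold, which is 11.6 and 14.5 times less.

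H4, the most conserved core histone, followed. Of 10 genes tested, 7 fell and none rose, with a median log2 difference of -1.82. The least stable of these calls, that of Os09g0433600, held in 6 of the 15 fits. The main gene Os09g0553100 stood at 300 to 738 FPKM in the 6 controls, with a median of 337 FPKM, and at 80.1 and 52.5 FPKM in cold (-2.59 ± 0.34 SE, limma adjusted p = 1.62e-04). Os01g0835900 stood at 30.6 to 108 FPKM, with a median of 60.2 FPKM, and at 2.21 and 9.61 FPKM in cold (-3.39 ± 0.33 SE, limma adjusted p = 1.44e-05). Os07g0549900 stood at 14.8 to 39.0 FPKM, with a median of 19.7 FPKM, and at 1.56 and 0.874 FPKM in cold (-3.44 ± 0.43 SE, limma adjusted p = 1.11e-04). Neither gene had a cold library inside its control range. Os10g0539500 fell from 36.4 to 227 FPKM to 30.7 and 33.4 FPKM (-1.50 ± 0.45 SE, limma adjusted p = 0.0257), a smaller difference whose call was lost in 4 of the 15 fits. The 3 H4 genes not called were at 10.2 FPKM or less in every control.

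H2B, which pairs with H2A in the nucleosome, fell in 9 of 13 genes and rose in 1, with a median log2 difference of -1.40. The least stable of the falls, that of Os08g0490900, was called in 5 of the 15 fits. A cluster of 6 H2B genes occupies 186098 bases of chromosome 1, from 2686729 to 2872826. All 6 fell, by log2 1.19 to 2.31, and in each both cold libraries were under all 6 controls. The most abundant of them, H2B.6 Os01g0152700, stood at 192 to 324 FPKM in controls, with a median of 221 FPKM, and at 76.6 and 40.7 FPKM in cold (-2.05 ± 0.25 SE, limma adjusted p = 1.02e-04). Os01g0153100, an H2B.6 gene of the same cluster, stood at 51.4 to 94.4 FPKM, with a median of 64.4 FPKM, and at 16.8 and 9.84 FPKM in cold (-2.31 ± 0.21 SE, limma adjusted p = 8.70e-06). H2B.11 Os01g0839500 on the same chromosome fell from 87.6 to 264 FPKM to 58.1 and 54.2 FPKM (-1.40 ± 0.31 SE, limma adjusted p = 0.00493), a call lost without the ATM cold library (0.102). Not every abundant H2B gene moved: H2B.1 Os03g0279000 stood at 128 to 186 FPKM in controls, with a median of 157 FPKM, and at 140 and 124 FPKM in cold, a log2 difference of -0.25 that was not called. Another H2B.1 gene, Os05g0460475, named after its values were seen, rose from 0.215 to 4.38 FPKM to 9.75 and 5.13 FPKM (+2.02 ± 0.55 SE, limma adjusted p = 0.0162). Its call held in 11 of the 15 fits, with 28 reads in ATM cold and 15 in atm-1 cold.

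H2A genes did not all fall, and genes of 1 type could differ. Of 14 tested, 5 fell and 1 rose, and the median log2 difference was -0.57. H2AXa Os03g0721900, 1 of the 2 H2A.X genes, stood at 15.03, 16.7 and 37.3 FPKM in untreated ATM and 16.4, 21.0 and 28.0 FPKM in untreated atm-1, but was listed at 0 in ATM cold and stood at 0.233 FPKM in atm-1 cold (limma adjusted p = 1.04e-05). The other, H2AXb Os12g0530000, was at 3.00 FPKM or less in all 8 libraries and was not called. H2A.5 Os03g0279200 stood at 7.31 to 40.2 FPKM in controls, with a median of 28.0 FPKM, and at 0.445 and 0.728 FPKM in cold (-3.88 ± 0.66 SE, limma adjusted p = 0.00102). H2A.2 Os07g0545400, the main replication-type gene, stood at 191 to 393 FPKM, with a median of 241 FPKM, and at 117 and 80.2 FPKM in cold (-1.38 ± 0.25 SE, limma adjusted p = 0.00144), a call lost without the atm-1 cold library (0.0969). A pair of abundant genes stayed inside their control range. The H2A.Z-type variant 3 Os03g0743400 stood at 187 to 314 FPKM in controls and at 214 and 264 FPKM in cold (log2 difference 0.09), and H2A.4 Os05g0461400 stood at 80.7 to 225 FPKM and at 140 and 178 FPKM (0.07). With these, the H2A sum fell less than the H1 and H4 sums, to 509 and 560 FPKM from 799 ± 170 FPKM (SD, n = 3) in ATM and 776 ± 87.6 FPKM (SD, n = 3) in atm-1. The H2A gene called higher, Os01g0974600, is also described as H2A.5. It was listed at 0 in all 6 controls and stood at 0.556 and 0.273 FPKM in cold, so its call rests on 2 reads in ATM cold and 1 read in atm-1 cold. It passed the filter only through the atr libraries, at 4.58 FPKM untreated and 1.36 FPKM after 70 Gy. The remaining H2A.5 gene, Os01g0502700, stood at 0 to 2.15 FPKM in controls and at 0.600 and 0.707 FPKM in cold and was not called.

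H3 calls went in both directions and were few. Of 9 tested, 2 fell and 1 rose. That share, 33.3%, was near the 28.4% of all genes called (15.6% higher, 12.9% lower). The 2 that fell encode the replacement histone H3.3: H3.3a Os03g0390600 stood at 19.7 to 44.4 FPKM in controls, with a median of 33.4 FPKM, and at 12.4 and 7.71 FPKM in cold (-1.56 ± 0.37 SE, limma adjusted p = 0.00720). Os04g0450800 stood at 19.1 to 29.1 FPKM, with a median of 22.4 FPKM, and at 6.90 and 6.68 FPKM in cold (-1.60 ± 0.35 SE, limma adjusted p = 0.00451). Each H3.3 call was lost without the atm-1 cold library (limma adjusted p = 0.141 and 0.0670), and that of H3.3a also by limma-voom (adjusted p = 0.123). The gene that rose, H3.2 Os05g0438700, named after its values were seen, stood at 1.63, 2.13 and 3.02 FPKM in untreated ATM, 12.5, 0.851 and 1.28 FPKM in untreated atm-1, and 36.4 and 22.7 FPKM in cold (+3.08 ± 0.78 SE, limma adjusted p = 0.0113). The value of 12.5 FPKM came from atm-1 control replicate 1, and the call of the gene held in 12 of the 15 fits. Another H3.3 gene, Os06g0130900, singled out after its values were seen, lies upstream of the main H1 gene Os06g0130800 on the same strand, 1635 bases from its start. In cold it stood at 48.2 and 47.2 FPKM, and in controls at 9.46 to 20.8 FPKM except 97.7 FPKM in atm-1 control replicate 1. It was not called with that library (+1.19, limma adjusted p = 0.171) and was called without it and ATM 70 Gy replicate 3 (+1.59, limma adjusted p = 0.00495). H3.2 Os01g0866200, at 54.2 and 56.6 FPKM in cold and a control median of 24.1 FPKM, behaved likewise (+0.97, limma adjusted p = 0.0707 with both libraries, and +1.19, 0.00743 without). The fit without both libraries called 47.9% of all genes, 23.6% higher and 24.3% lower. The centromeric histone gene CENH3 Os05g0489800 was at 4.90 FPKM or less and was not called. The H3 sum stood at 159 and 143 FPKM in cold, against 84.2 to 237 FPKM in the controls. The highest control sum was that of atm-1 control replicate 1, and without it the controls lay at 84.2 to 109 FPKM, below both cold libraries.

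**Figure D2:**
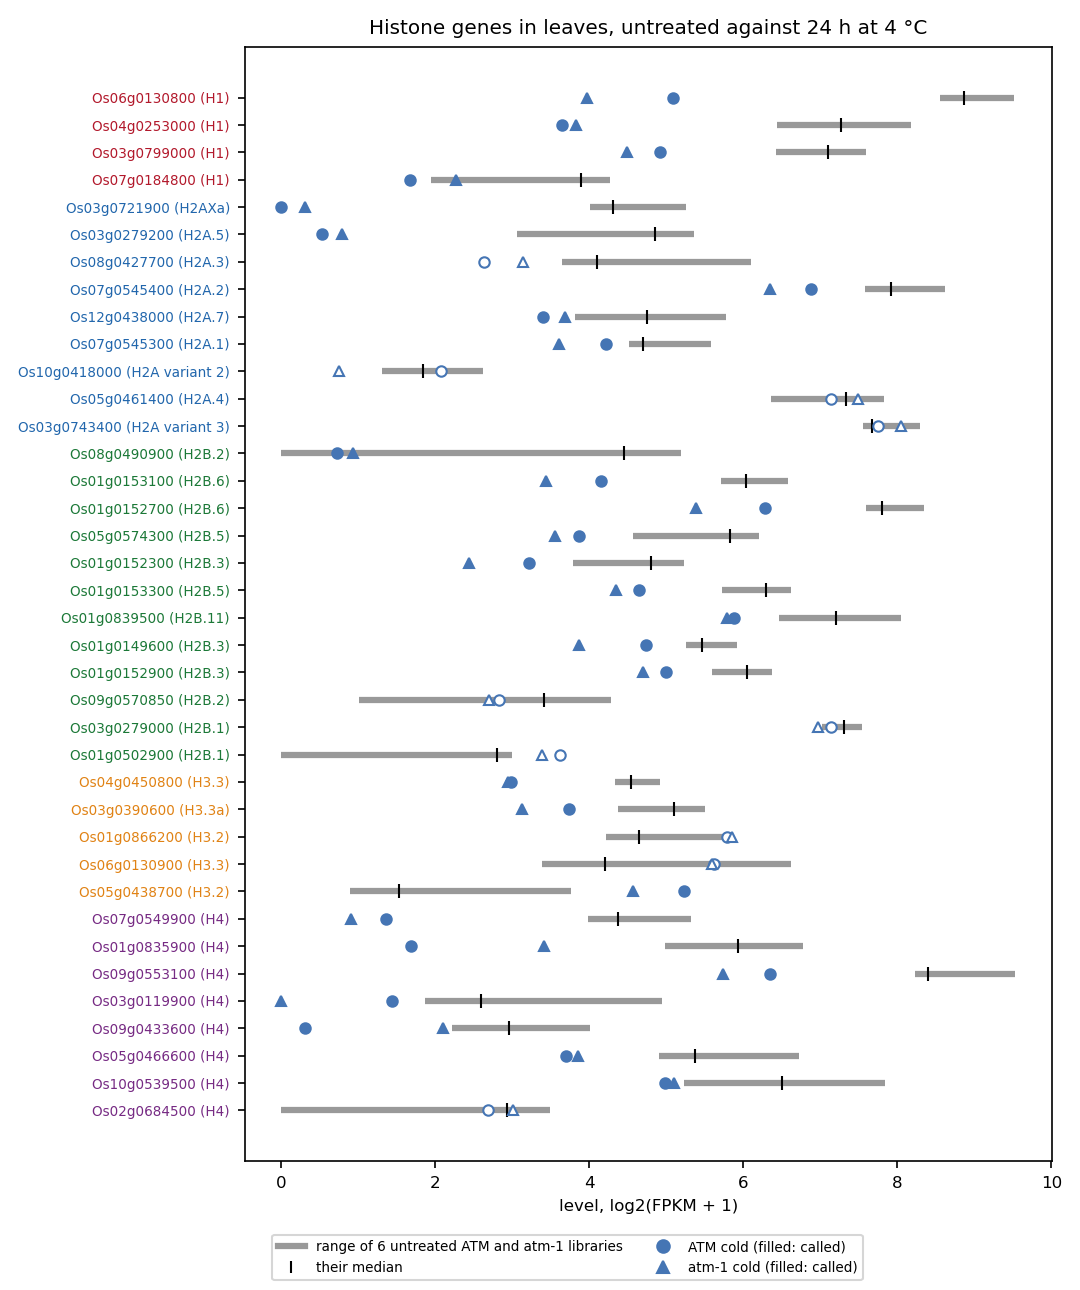
Level of each histone gene that reached 5 FPKM in a control, as log2(FPKM + 1). Grey bars span the 6 untreated ATM and atm-1 libraries, ticks mark their median, and blue points are the ATM and atm-1 cold libraries, filled where the gene was called. Cold points of all 4 H1 genes lie left of the control median, while H2A variant 3, H2A.4 and H2B.1 Os03g0279000 lie at or near their control ranges.

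Other genes tied to DNA copying and histone supply were counted beside the histones. In cold, 1 of 27 DNA replication genes rose and 3 fell, with a median log2 difference of -0.45. The summed FPKM of that list was 154 and 157 in cold, below the 205 to 235 of all 6 controls. Of 17 dividing-cell markers, 2 rose and none fell: the mitotic cyclin CycB1 (Os01g0805600, +1.26, limma adjusted p = 0.0340) and the cyclin-dependent kinase CDKB2 (Os08g0512600, +1.27, limma adjusted p = 0.00308). Among 16 histone chaperone genes, whose products escort histones to DNA, 1 rose and 4 fell. Those that fell included Nucleosome assembly protein 1 (Os06g0149400, -0.95) and the MSI1 homolog Os09g0540600 (-1.85). By sign, 8 of the 16 were higher and 8 lower. The whole chaperone list summed to 361 and 426 FPKM in cold, above the 296 to 327 FPKM of all 6 controls. Histone modifier genes summed to 1040 and 1046 FPKM in cold, also above the 808 to 911 FPKM of the controls. Of 63 modifier genes tested, 14 rose and 11 fell. The highest of these, ATXR6 (Os02g0122700, +2.74, limma adjusted p = 6.75e-09), is known from Arabidopsis as a methyltransferase of histone H3. Mesophyll markers were lower too: 13 of 19 tested fell, with a median of -2.45, and their summed FPKM was 2653 and 5746 in cold against 13556 to 25660 in the controls. Of the 29 markers, 7 and 8 were listed at 0 in cold and 9 to 11 in the controls. In bulk leaves, fewer cells of a type and less RNA per cell cannot be told apart, and the part of the markers' fall in the histone result was not tested. Of 2 secondary wall genes tested, none was called. The count of histone genes called in cold was 35 without atm-1 control replicate 1 and ATM 70 Gy replicate 3, where 47.9% of all genes were called (23.6% higher, 24.3% lower). It was 18 without the atm-1 cold library, 20 without the ATM cold library, and 20 by limma-voom on recovered reads.

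No histone gene was called 6 h after gamma irradiation in ATM, atm-1 or DJ, where calls were also rare among all genes. None of 50 was called by limma in ATM after 70 Gy, where 0.525% of all genes were called (0.431% higher, 0.0936% lower). The unadjusted p was below 0.05 for 5 histone genes there, against 3008 of all 24582 genes. None was called by limma in atm-1, where 0% of all genes were. Such an unadjusted p was found for 8 histone genes, against 1877 of all 24582. None of 49 was called by limma in DJ after 40 Gy, where 1.03% of all genes were (0.481% higher, 0.546% lower). There 6 had such an unadjusted p, against 3017 of all 23063 genes. Calls by limma-voom on recovered reads also numbered 0 in each of these comparisons. Counted by overlap, every irradiated library lay above every untreated one for 4 histone genes in ATM and below for 3, against 7.21% and 13.9% of all genes. In atm-1 these counts were 5 and 1, against 7.4% and 5.53%, and in DJ 11 and 8, against 17.3% and 21.0%. The median log2 difference of the histone genes was 0.05 in ATM, 0.28 in atm-1 and 0.10 in DJ. For all genes it was -0.05, 0.03 and -0.004. The H1 sum was 629 to 1177 FPKM in the 6 untreated and 763 to 1204 FPKM in the 6 irradiated ATM and atm-1 libraries, and H4 stood at 509 to 1193 and 639 to 966 FPKM. In ATM after 70 Gy 4 of 27 DNA replication genes rose, namely 3 ribonucleotide reductase genes and PCNA (Os02g0805200, +3.08, limma adjusted p = 2.73e-04), the clamp of DNA polymerase.

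In several lines 2 core histone genes were higher after irradiation. They were picked out after their values were seen, as genes in which every irradiated library lay above every untreated one in ATM, DJ and the line labelled ku70, and the irradiated atr library above the untreated one. Of 49 histone genes tested, 2 met this, and 0.949% of all genes did. None was lower in all 4, and 2.04% of all genes were. The sums of other lists moved in these libraries too. Dividing-cell markers summed to 132 to 180 FPKM in untreated ATM and 328 to 374 FPKM after 70 Gy, 228 and 260 FPKM in atr, 261 to 269 and 271 to 373 FPKM in DJ, and 261 to 265 and 396 to 539 FPKM in the libraries labelled ku70. Gene by gene the list did not rise as a whole. In ATM 4 of 17 tested markers were higher and 11 lower, with a median log2 difference of -0.15 and 1 called higher. Of 11 tested in the second set, 8 were higher and 2 lower in DJ. In the libraries labelled ku70, 3 were higher and 7 lower, with 1 called higher. Mesophyll markers in DJ summed to 44079 to 48553 FPKM before and 15503 to 17501 FPKM after 40 Gy. Their part in the rises was not tested. The first, H2B.3 Os01g0149600 (chromosome 1, 2686729 to 2687456, plus strand), stood at 37.4, 41.8 and 37.3 FPKM in untreated ATM and 62.0, 59.1 and 63.1 FPKM after 70 Gy (+0.65 ± 0.15 SE, limma adjusted p = 0.116). In DJ it stood at 36.9 and 39.9 FPKM before and 80.0 and 75.5 FPKM after 40 Gy (+1.00 ± 0.15 SE, limma adjusted p = 0.0601). In the libraries labelled ku70 it stood at 44.6 and 45.6 FPKM before and 86.2 and 96.9 FPKM after, and rose (+1.00 ± 0.15 SE, limma adjusted p = 0.0199). That call was lost with the replicate number as a block (0.0950) and without either untreated ku70 library (0.0998 and 0.0975). In atr it stood at 32.4 and 49.6 FPKM. That irradiated and untreated libraries did not overlap in these lines follows from the rule by which the gene was picked. In atm-1 the irradiated libraries, at 46.0, 37.6 and 38.3 FPKM, were not above the untreated ones, at 59.6, 46.7 and 44.8 FPKM. The difference between the responses of atm-1 and ATM was -0.95 ± 0.22 SE and was not called (limma adjusted p = 0.227). Os01g0149600 was picked by the values of the same ATM libraries, so this difference is not a separate observation. In that comparison 0 histone genes were called by limma against 0.167% of all genes, and limma-voom called 0. An unadjusted limma p below 0.05 was found for 9 of 50 histone genes and 2068 of all 24582 genes.

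The second, H3.2 Os01g0866200 (chromosome 1, 37513878 to 37514462, plus strand), stood at 17.5, 21.7 and 40.2 FPKM in untreated ATM and 52.3, 80.0 and 73.2 FPKM after 70 Gy (+1.40 ± 0.37 SE, limma adjusted p = 0.167). In DJ it stood at 41.2 and 17.5 FPKM before and 71.4 and 74.2 FPKM after (+1.40, limma adjusted p = 0.242). In the libraries labelled ku70 it stood at 67.1 and 65.4 FPKM before and 115 and 88.9 FPKM after (+0.60, limma adjusted p = 0.418). In atr the 2 libraries stood at 48.4 and 92.5 FPKM, and in atm-1 the groups overlapped, at 57.2, 26.5 and 19.4 FPKM before and 35.2, 28.8 and 24.1 FPKM after. Both genes were called in ATM once atm-1 control replicate 1 and ATM 70 Gy replicate 3 were left out (limma adjusted p = 0.0227 for Os01g0149600 and 0.0344 for Os01g0866200), a fit that called 6.81% of all genes, 2.28% higher and 4.52% lower. A second H2B.3 gene of the chromosome 1 cluster, Os01g0152300, also singled out after its values were seen, stood at 17.7, 36.5 and 35.8 FPKM in untreated ATM and 53.6, 65.7 and 89.1 FPKM after 70 Gy (+1.22, limma adjusted p = 0.221). In DJ its groups overlapped, at 93.8 and 14.7 FPKM before and 50.1 and 140 FPKM after. No histone gene was called between atm-1 and ATM at 70 Gy, where 0.33% of all genes were, and limma-voom called 0. An unadjusted limma p below 0.05 was found for 6 histone genes, against 1229 of all 24582 genes. In that comparison 4 histone genes were higher in every atm-1 library and 4 lower, against 9.7% and 5.94% of all genes, and the 4 lower ones included the main H1 gene Os06g0130800 and these 3 genes. The 3 had been singled out after the values of the same irradiated ATM libraries were seen, so their place there is not a separate observation.

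**Figure D3:**
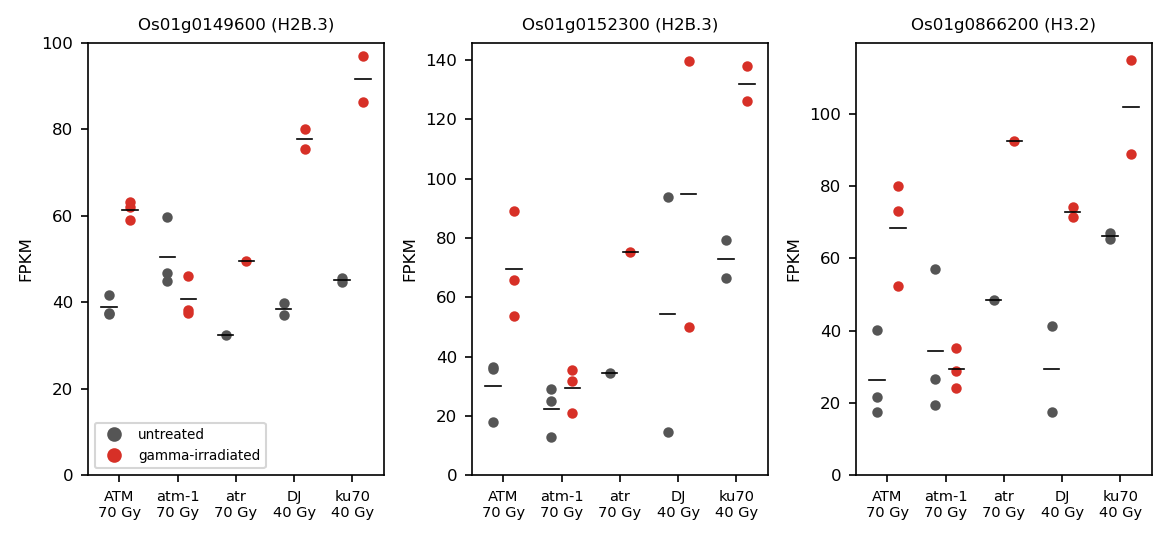
FPKM of 2 H2B.3 genes and an H3.2 gene in untreated (grey) and irradiated (red) libraries of 5 lines, 1 point per library with a bar at the group mean. Os01g0149600 was picked as a gene in which every irradiated library lies above every untreated one in ATM, atr, DJ and ku70. In atm-1, which that rule left out, its irradiated libraries lie at 46.0 FPKM or below.

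Neither H2A.X gene was called after irradiation in ATM, atm-1 or DJ. In ATM, H2AXa Os03g0721900 stood at 15.03, 16.7 and 37.3 FPKM before and 16.6, 19.0 and 21.2 FPKM after 70 Gy, with overlapping groups. In DJ it stood at 12.5 and 7.67 FPKM before and 27.7 and 20.3 FPKM after 40 Gy, without overlap. In the libraries labelled ku70 it stood at 11.6 and 10.2 FPKM before and was listed at 0 in both libraries after 40 Gy (limma adjusted p = 0.0107). H2AXb Os12g0530000 stood at 34.4 and 28.5 FPKM before and 65.5 and 35.0 FPKM after in DJ, also higher without overlap. In the libraries labelled ku70 it stood at 49.0 and 71.7 FPKM before and 84.4 and 28.0 FPKM after, with overlapping groups, and was not called. The authors' deposited table of DJ after 40 Gy against DJ control listed 1 histone gene, the H4 gene Os05g0462700, with a log2 fold change of 9.26 and an adjusted p of 0.00582. Its FPKM was listed at 0 in both DJ controls and stood at 9.61 and 19.1 after 40 Gy, and limma gave an adjusted p of 0.413.

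In the line labelled ku70, 40 Gy lowered 4 of 49 histone genes and raised 1. The share called, 10.2%, was near that of all genes, of which 9.92% were called (2.84% higher, 7.08% lower). The median log2 difference was -0.84 for histone genes and -0.29 for all genes. The main H1 gene Os06g0130800 stood at 2115 and 2069 FPKM before and at 940 and 966 FPKM after 40 Gy (-1.13 ± 0.17 SE, limma adjusted p = 0.0225), a call lost without the filter on low values (0.0583), with the replicate block (0.0777) and without any 1 of the 4 libraries (0.0730 to 0.129). In DJ it stood at 2106 and 1750 FPKM before and 1771 and 1842 FPKM after, with overlapping groups. The H4 gene Os10g0539500 stood at 712 and 912 FPKM before and at 343 and 275 FPKM after (-1.39 ± 0.26 SE, limma adjusted p = 0.0370), and its call was lost in the same fits (0.0570, 0.0715 and 0.0699 to 0.184). In DJ it stood at 474 and 321 FPKM before and 381 and 323 FPKM after, so that groups overlapped. Counted by overlap, 20 histone genes were lower and 4 higher in both irradiated libraries, against 32.6% and 18.9% of all genes. The remaining lower calls, H2AXa and H2B.1 Os01g0502900, went to a listing of 0 in both libraries. Both were lost with the replicate block (0.0830 and 0.0815), and that of H2AXa also without either untreated library (0.0747 and 0.0716). Os01g0502900 stood at 15.6 and 16.6 FPKM before (limma adjusted p = 0.00570), and it overlaps another gene on the same strand by 505 bases, so its reads are uncertain. These libraries listed many genes at 0: of 33 histone genes with a median of 10 FPKM or more, 3 and 6 were at 0 there and none in the other 8 libraries of the set. Of all genes at that median, 5.99% and 6.11% were at 0, against 0.142% to 2.69%. Mesophyll markers moved as well, with 12 of 19 lower and summed FPKM of 9072 to 11627 against 70801 to 72434 before, and their part was not tested.

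The response of the line labelled ku70 differed from that of DJ for H2AXa and H2B.1 Os01g0502900, the 2 genes listed at 0. That was 2 of 49, both lower, against 1.15% of all genes called, 0.39% higher and 0.763% lower (limma adjusted p = 0.0368 and 0.0402). No call remained in this comparison without any 1 of 6 of its 8 libraries, the DJ and ku70 controls among them, and without ku70 40 Gy replicate 1 the call of Os01g0502900 remained. Without DJ 40 Gy replicate 1 both were lost (limma adjusted p = 0.0719 and 0.0718) and 1 other histone gene was called. The same genes were lower between the irradiated libraries of both lines (limma adjusted p = 0.0140 and 0.0112), 2 of 49 against 2.75% of all genes (0.863% higher, 1.89% lower), and by overlap 6 histone genes were higher and 14 lower, against 14.7% and 22.3%. No histone gene was called between the untreated libraries, where 0.62% of all genes were (0.395% higher, 0.225% lower), and limma-voom called 0. An unadjusted limma p below 0.05 was found for 3 histone genes, against 1830 of all 23063 genes. By overlap 15 histone genes were higher and 4 lower in the untreated libraries labelled ku70, against 20.6% and 17.2%. In the line labelled ku70 after 40 Gy the count of calls was 1 when either of its untreated libraries was left out.

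**Figure D4:**
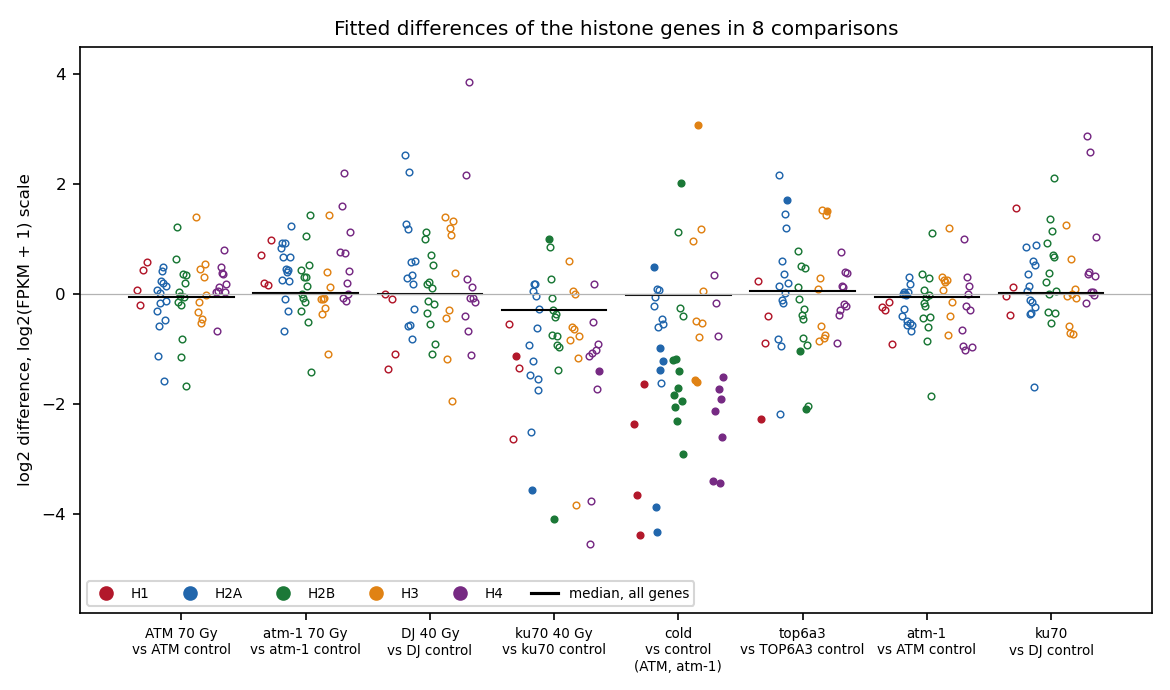
Fitted log2 difference of each histone gene on the log2(FPKM + 1) scale in 8 comparisons, coloured by class and filled where called, with a black bar at the median of all genes tested. The cold column holds 30 of the filled points, with its histone median at -1.21, and the irradiated ATM, atm-1 and DJ columns hold none.

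Between untreated lines, 5 of 50 histone genes differed between the 3 top6a3 libraries and the library labelled TOP6A3, that is 10% against the 12.9% of all genes called (8.18% higher, 4.7% lower). By overlap 14 histone genes were higher and 19 lower, against 41.5% and 36.4%. With 1 library on that side, its spread was assumed to be that of the other groups. Mesophyll markers summed to 24621 to 39387 FPKM in top6a3 and 11799 FPKM in the library labelled TOP6A3, and 10 of 19 were called higher. Of 17 dividing-cell markers, 5 were called higher and 2 lower. The part of these markers in the histone differences was not tested. Lower in top6a3 were the H1 gene Os04g0253000, at 76.4, 40.5 and 59.3 FPKM against 278 FPKM (-2.27 ± 0.62 SE, limma adjusted p = 0.0311), and H2B.5 Os05g0574300, at 25.8, 19.2 and 21.9 FPKM against 97.5 FPKM (-2.09 ± 0.44 SE, limma adjusted p = 0.00763). H2B.3 Os01g0152900 was lower too, at 36.4, 33.6 and 37.2 FPKM against 74.3 FPKM (-1.04, limma adjusted p = 0.0362). Higher were H2A.7 Os12g0438000, at 38.4, 30.2 and 36.5 FPKM against 9.89 FPKM (+1.72, limma adjusted p = 0.0433), and H3.2 Os06g0160100, at 2.60, 1.54 and 1.51 FPKM and listed at 0 in the library labelled TOP6A3 (limma adjusted p = 3.34e-04). In untreated atr, Os05g0574300 stood at 43.5 FPKM and Os04g0253000 at 218 FPKM. The count of calls was 3 without top6a3 replicate 1 and 2 without replicate 2 or 3. The calls of Os12g0438000 and Os01g0152900 were lost without any 1 of the 3 top6a3 libraries and by limma-voom, and that of Os04g0253000 without replicate 2 (0.0775) or 3 (0.0616). Between the untreated atm-1 and ATM libraries no histone gene was called by limma and 0% of all genes were, and limma-voom called 0. An unadjusted limma p below 0.05 was found for 2 histone genes, against 1330 of all 24582 genes. By overlap 1 histone gene, H2B.3 Os01g0149600, was higher in atm-1 and 0 lower, against 2.42% and 4.15% of all genes.

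Comparisons of 1 library with 1 library had no replicate and no test. In atr after 70 Gy, 3 of 49 histone genes were 2-fold or more higher on the FPKM + 1 scale and 6 lower, against 7.4% and 14.4% of all genes. The largest falls among genes at 20 FPKM or more were those of H1 Os04g0253000, from 218 to 67.6 FPKM, and H4 Os10g0539500, from 217 to 104 FPKM. The largest rises were those of H3.3 Os06g0130900, from 13.8 to 42.9 FPKM, and H2B.3 Os01g0152300, from 34.4 to 75.3 FPKM. Mesophyll markers in that atr library summed to 1850 FPKM, the lowest of the set. In TOP6A3-OE1_atm-2 against TOP6A3-OE1 at 40 Gy, 3 of 44 were 2-fold or more higher and 5 lower, against 15.9% and 13.6% of all genes. Mesophyll markers summed to 76133 FPKM in TOP6A3-OE1_atm-2 and 17710 FPKM in TOP6A3-OE1, and their part was not tested. Here H2B.3 Os01g0152300 stood at 8.44 against 31.0 FPKM, and H2B.6 Os01g0153100 at 47.7 against 105 FPKM. H4 Os07g0549900 was the largest rise at 20 FPKM or more, with 40.1 against 17.4 FPKM.

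The level of some variants followed the line more than the treatment, a pattern picked out after the values were seen and described without a test. H3.3a Os03g0390600 (chromosome 3, 15645609 to 15648151, plus strand) stood at 16.9 to 44.4 FPKM in all 12 untreated and irradiated ATM and atm-1 libraries. In the top6a3, TOP6A3 and atr libraries it stood at 100 to 387 FPKM, and in the DJ and ku70 libraries at 155 to 456 FPKM. It stood at 32.1 FPKM in TOP6A3-OE1 and 16.1 FPKM in TOP6A3-OE1_atm-2. H2AXb Os12g0530000 had the same order: 0 to 6.53 FPKM in the 12 ATM and atm-1 libraries, 14.5 to 34.8 FPKM in top6a3, TOP6A3 and atr, 28.0 to 84.4 FPKM in DJ and ku70, and 3.97 and 4.40 FPKM in the TOP6A3-OE1 lines. H3.3 Os04g0450800 did not share it, with 19.1 to 48.9 FPKM in the 12 libraries and 10.7 to 50.4 FPKM in top6a3, TOP6A3 and atr. Over all histone genes, 6 of 50 were higher in every untreated top6a3, TOP6A3 and atr library than in every untreated ATM and atm-1 library and 0 lower, against 10.2% and 3.21% of all genes. At 40 Gy, 12 of 49 were lower in both TOP6A3-OE1 lines than in every DJ and ku70 library and 2 higher, against 8.25% and 17.1% of all genes. Whether the lines differ in cultivar was not tested, and the FPKM of the 2 sets come from separate tables.

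**Figure D5:**
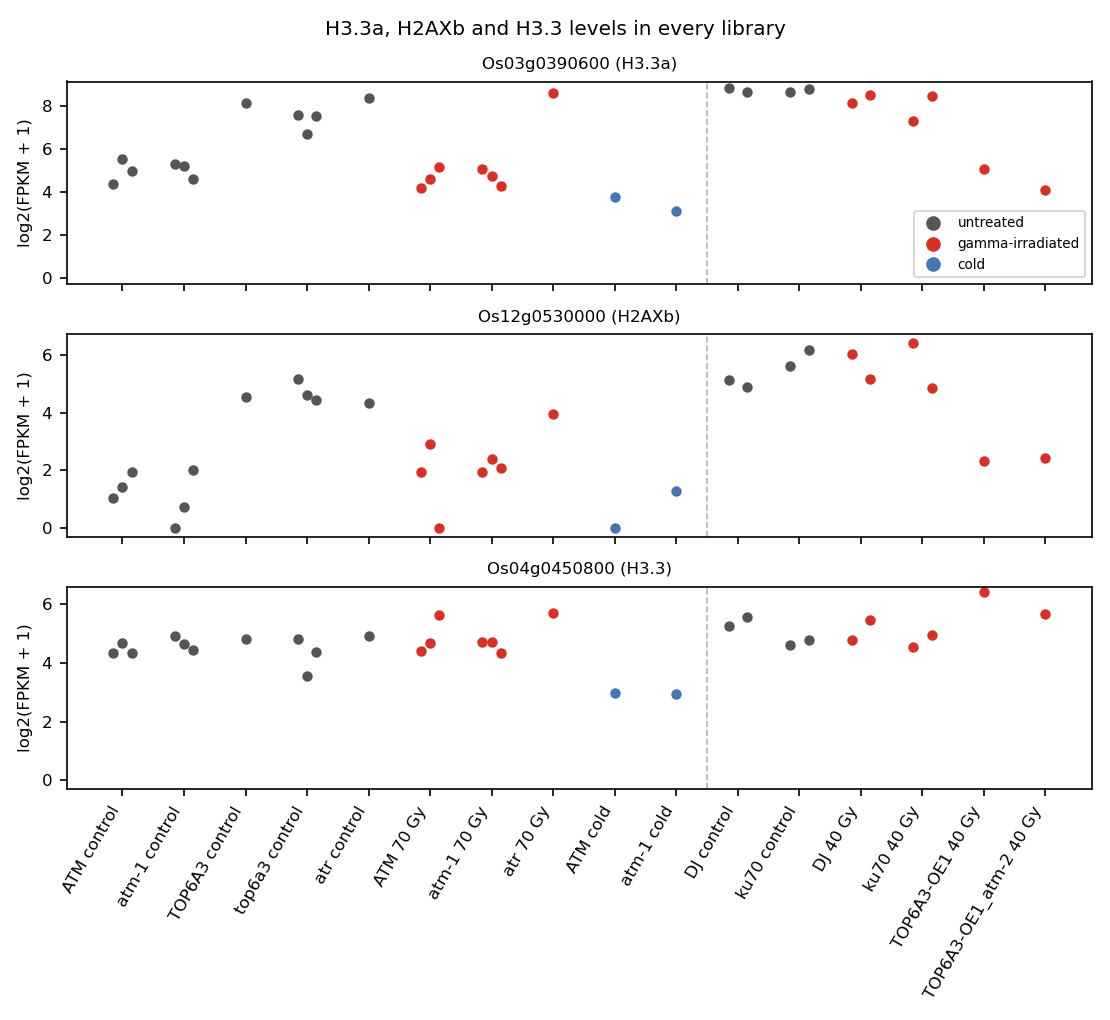
Level, as log2(FPKM + 1), of H3.3a, H2AXb and the H3.3 gene Os04g0450800 in every library, grouped by line and treatment, with the 2 sets on either side of the dashed line. H3.3a and H2AXb are low in ATM, atm-1 and the TOP6A3-OE1 lines and high elsewhere, whereas Os04g0450800 is at 6.68 and 6.90 FPKM in cold and at 10.7 FPKM or more in every other library.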

How the data were processed

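The authors deposited FPKM per gene and library, and the log2 fold change and adjusted p-value of a DJ 40 Gy table. FPKM is scaled within each library. No source used here names the aligner, the counter or the genome build. Whole reads recovered from FPKM and gene length (100% of values within 0.01) served only for depth and for limma-voom. Libraries were grouped by their labels in 2 sets with their own gene lists, of 38978 and 40718 genes. Genes that reached 1 FPKM in 2 or more libraries (24582 and 23063) were fitted with limma 3.58.1 in R 4.3.3, as a trend on log2(FPKM + 1) with 1 mean per group, two-sided, with Benjamini-Hochberg adjustment. Fold changes of low genes are understated on that scale. The fit was tested on simulated data. The members and lists were chosen with earlier results of these data known. Named are the 3 most abundant genes of each class, up to 6 called genes per comparison by size, and variants; other genes were named after their values were seen. Depth was 10364355 to 16477147 reads per library. Alternatives were another pseudocount, no filter, median-ratio scaling, limma-voom, fewer groups, a replicate block and leaving out libraries. Sequences and promoter motifs were not used here.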

Additional observations from a re-analysis of the deposited data

Results flagged for a closer look

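The 40 Gy response of 2 histone genes differed between the line labelled ku70 and DJ by the fitted difference of the responses. H2AXa (Os03g0721900) had a limma adjusted p of 0.0368 and H2B.1 (Os01g0502900) of 0.0402. Both were listed at 0 in the 2 libraries labelled ku70 at 40 Gy, which list 25651 and 25713 genes at 0. The part of those zeros in the difference was not tested.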

How the results depend on the processing

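Over 2376 values of named histone genes under the alternatives, 2305 stayed on the same side of the threshold as reported, 63 were no longer past it and 8 were newly past it. The sign changed in 133 of them, none of which was called in either fit, with a reported log2 difference of at most 0.51. Of the counts of histone genes called, 122 stayed within 1.5 times of the reported count and 26 did not, and the cause was not tested. In ATM after 70 Gy the count went from 0 to 2 without atm-1 control replicate 1 and ATM 70 Gy replicate 3. For top6a3 it went from 5 to 12 with only the groups compared, and ranged from 2 to 3 with 1 library left out. In cold it was 20 of the reported 30 with only the groups compared and by limma-voom, and ranged from 18 to 33 with 1 library left out. In DJ after 40 Gy it went from 0 to 1 with a pseudocount of 0.1 and without a filter, and ranged from 0 to 1 with 1 library left out. In the line labelled ku70 after 40 Gy it went from 5 to 3 without a filter and ranged from 1 to 7 with 1 library left out. For the difference between the ku70 and DJ responses it went from 2 to 0 with only the groups compared and ranged from 0 to 1 with 1 library left out. Between ku70 and DJ at 40 Gy it went from 2 to 5 by limma-voom and to 0 with only the groups compared, and ranged from 2 to 3 with 1 library left out. With the replicate number as a block it was 0 in every comparison that allowed one, the 3 last named included, where the reported counts were 5, 2 and 2. Same-numbered libraries correlated at -0.365 to 0.226 over 20 pairs, so they share only a number. Counts over all genes moved too: from 129 to 1656 in ATM after 70 Gy without both libraries that stood apart, and from 6991 to 11660 in cold, or 3464 with only the groups compared. Low reads limit the genes under 1 FPKM, and exact zeros limit the 40 Gy libraries.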
